A study of Mus musculus with 10 samples.

Results

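Of the 14300 genes in the counts table, 71 coded for receptors of neuromodulators or carried a *Gpr* number, the symbol series that holds most orphan G-protein-coupled receptors. They were chosen by symbol, with earlier results of these libraries known. For this, 47 receptors were listed by name for their ligand, and every symbol made of Gpr and a number was added. The table held 34 of the 47 listed receptors and 37 of the 76 *Gpr*-numbered genes of the GENCODE annotation. It held only genes above 0.5 CPM (the count scaled to library size) in at least 5 of the 10 libraries, so the levels measured here also decided which receptors are described. *Gpr83*, at 0.623 CPM in its fifth-highest library, and *Gpr61*, at 0.640 CPM, lay just inside that limit. The listed receptors outside it, *Sstr4*, *Npy5r*, *Galr1*, *Oprd1*, *Oprk1*, *Mchr1*, *Adra1b*, *Htr1b*, *Htr1d*, *Htr1f*, *Htr2b*, *Htr2c* and *Htr4*, were not analysed here. Of the 71 genes, 7 passed the limit in libraries of 1 population only and had to differ to be in the table, *Gpr61* in TdTomato+ cells and *Htr7*, *Npy2r*, *Adra1a*, *Gpr83*, *Gpr17* and *Gpr149* in TdTomato- cells. Fold changes and calls of the receptors are therefore given as a description, and their p-values set a difference against the spread between mice without supporting anything about the set.

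G-protein-coupled receptors are membrane proteins that pass the binding of a ligand to a heterotrimeric G protein, which by its type raises cyclic AMP (Gs), lowers it and opens potassium channels (Gi/o) or releases calcium (Gq). Dopamine, noradrenaline, serotonin, acetylcholine, adenosine, endocannabinoids, lipids such as sphingosine 1-phosphate and many neuropeptides signal through them, whereas orphan receptors have no settled ligand. In the embryonic cortex some of these receptors are known to act on progenitor division, migration and axon growth before mature synapses form.

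The cells came from embryos of *Grem1creERT; Rosa26LSLTdtomato* mice on a C57BL6/J background, in which *Grem1* drives a Cre recombinase that tamoxifen switches on. Tamoxifen was given to pregnant mice in mid-gestation and embryonic cells were taken 24 hours later, so a red cell had active Cre in that window or descended from such a cell. Live TdTomato+ and TdTomato- cells of 5 mice, numbered 2 to 6, were sorted by flow cytometry, and poly(A) RNA was sequenced. Both populations were sorted from the same mouse numbers after tamoxifen. TdTomato- cells are all remaining live cells of the dissected tissue rather than 1 cell type. The sample descriptions name brain as the tissue and the study's methods the dorsal telencephalon, and the kit, RNA input, sequencer and read length also differ between these sources, which was not settled here.

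Library totals were 23429034 to 27286180 counts, so a count of 3 equalled 0.110 to 0.128 CPM, and counting error was similar in all libraries. *Grem1* itself averaged 63.3±3.10 CPM in TdTomato+ libraries, against 6.11±0.731 CPM in TdTomato- libraries (mean±s.d., n=5). Deep-layer neuron markers (6 of 6 in the table) summed to 4770 to 5816 CPM in TdTomato+ and 1238 to 1676 CPM in TdTomato- libraries. Markers of other cells were lower in TdTomato+ libraries: radial glia (8 of 8 in the table) at 128.0 to 176 against 1572 to 1848 CPM, dividing cells (5 of 5) at 47.8 to 75.9 against 1321 to 1663 CPM, intermediate progenitors (5 of 5) at 84.8 to 131 against 898 to 1128 CPM, and GABAergic neurons and their progenitors (9 of 9) at 59.9 to 89.7 against 1837 to 2283 CPM. In sorted bulk RNA, fewer cells of a type and less RNA per cell cannot be told apart, which holds for every difference given here.

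Log2 fold changes are positive where TdTomato+ cells had more RNA of a gene. They come from a paired edgeR fit, and a gene is called higher or lower where its Benjamini-Hochberg adjusted p over all 14300 genes is 0.05 or less. A value in parentheses with its s.e. is a log2 fold change. Of the 71 receptor genes, 39 were called higher, where 37.9% of all genes were, and 22 lower, where 39.4% of all genes were. With an added log2 fold change of at least 2 in size, 13 were higher (3.20% of all genes) and 13 lower (9.74% of all genes). The median log2 fold change was 0.52 for the receptors and −0.01 for all genes. Without the 7 genes that had to differ, 38 of 64 were called higher and 16 lower, 12 and 7 of them past the fold threshold. The listed receptors split into 16 higher, 13 lower and 5 not called, and the *Gpr*-numbered genes into 23, 9 and 5.

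**Figure D1:**
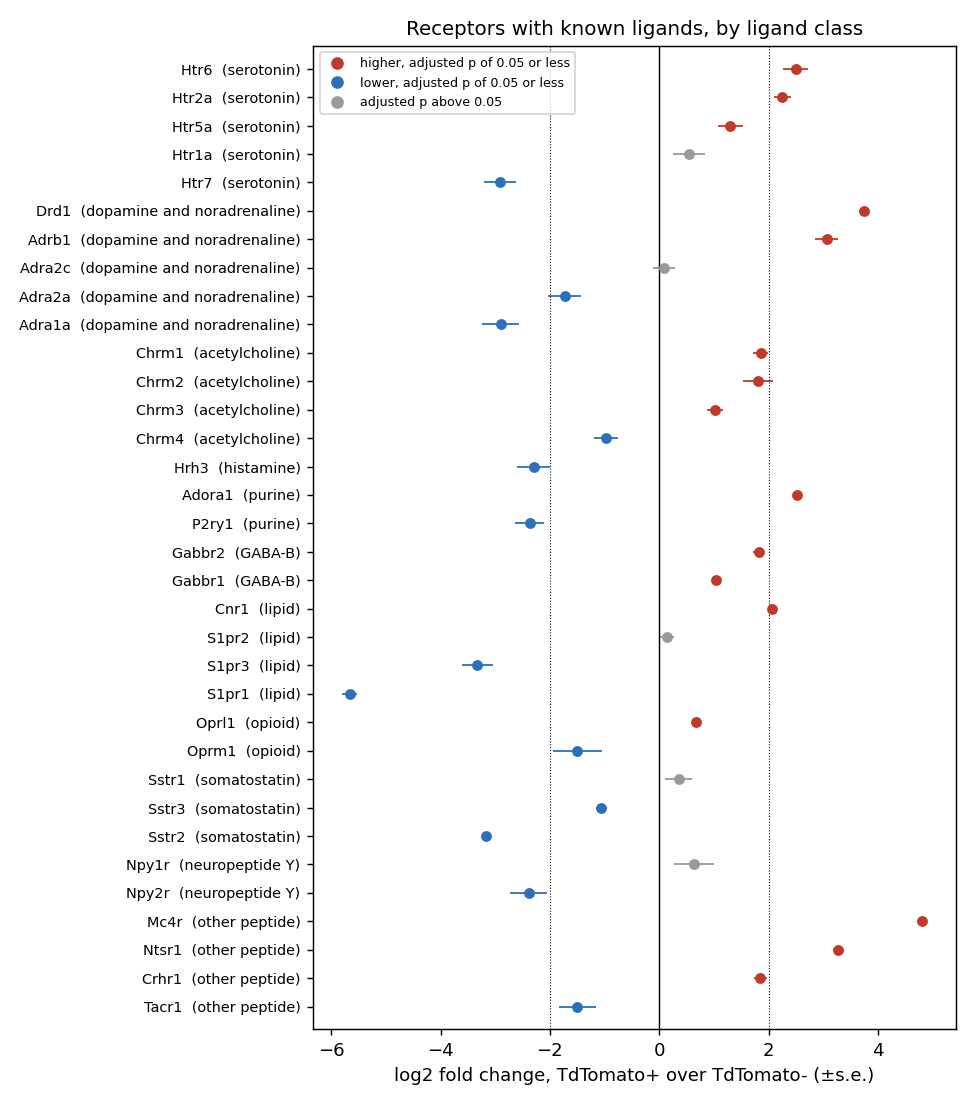
Each point is the log2 fold change of 1 listed receptor, TdTomato+ over TdTomato- cells, with its standard error as a bar (5 mice per population); receptors are ordered by ligand class and dotted lines mark −2 and 2. Most classes hold receptors on both sides of 0, from *Mc4r* at 4.80 to *S1pr1* at −5.66.

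Among the receptors for dopamine and noradrenaline, 2 of 5 were called higher (40%), 2 lower (40%) and 1 not called, near the 37.9% and 39.4% of all genes. *Drd1* (chr13:54051183-54055705 of GRCm38) encodes the Gs-coupled D1 dopamine receptor, well known from striatal neurons of the direct pathway and from deep cortical layers. In mice 2 to 6, in this order here and in all lists of 5 values, *Drd1* was at 28.2, 39.9, 30.7, 38.5 and 32.2 CPM in TdTomato+ libraries and at 2.07, 2.83, 2.37, 2.85 and 2.54 CPM in TdTomato- libraries. No TdTomato+ library came near a TdTomato- library (log2 fold change 3.74, s.e. 0.07), and *Drd1* was 48th of 14300 genes by increase. Markers of striatal neurons, 6 of 6 in the table, summed to 312 to 341 CPM in TdTomato+ and 268 to 394 CPM in TdTomato- libraries, but single markers went both ways, with 2 called higher and 4 lower. *Ebf1* (−4.66, s.e. 0.14), *Ikzf1* (−4.06, s.e. 0.30), *Isl1* (−4.03, s.e. 0.18) and *Rarb* (−3.84, s.e. 0.13) were lower, whereas *Ppp1r1b* (3.27, s.e. 0.08) and *Foxp1* (0.31, s.e. 0.08), both also known from deep cortical layers, were higher. The part of striatal neurons in the *Drd1* value was not tested.

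*Adrb1* (chr19:56722199-56733113) encodes the Gs-coupled beta-1 adrenergic receptor. It was at 18.9, 13.7, 11.9, 16.7 and 19.7 CPM in TdTomato+ and 1.80, 2.11, 2.29, 2.22 and 1.18 CPM in TdTomato- libraries. The populations were well apart (log2 fold change 3.06, s.e. 0.21). The alpha receptors went the other way or did not pass the test. *Adra1a* (chr14:66635251-66771168), the Gq-coupled alpha-1A receptor, had 8, 5, 6, 3 and 1 counts in TdTomato+ libraries, or 0.363, 0.217, 0.265, 0.130 and 0.0452 CPM, against 1.56, 1.83, 1.32, 1.43 and 1.53 CPM in TdTomato- libraries (−2.90, s.e. 0.33). *Adra2a*, a Gi/o-coupled receptor that also acts as an autoreceptor, ranged from 1.19 to 2.91 CPM in TdTomato+ and from 3.44 to 7.91 CPM in TdTomato- libraries (−1.73, s.e. 0.31). Its close relative *Adra2c* was at 4.13, 6.38, 6.75, 6.57 and 4.38 CPM in TdTomato+ and 4.07, 4.35, 4.97, 5.31 and 8.26 CPM in TdTomato- libraries, which overlap (log2 fold change 0.08, s.e. 0.20, edgeR adjusted p=0.72). Without mouse 6, the *Adra2c* value was 0.34 with an edgeR adjusted p of 0.0479, and without mouse 3 or 4 it was just under 0.

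Of 11 serotonin receptors looked for, 5 were in the table. Of these, 3 were called higher, where 37.9% of all genes were, 1 lower, where 39.4% were, and 1 not called. *Htr6* (chr4:139061108-139075570), a Gs-coupled receptor known to act on the migration of cortical neurons, was at 4.85, 6.42, 6.18, 4.70 and 4.16 CPM in TdTomato+ and 0.782, 0.864, 0.642, 1.07 and 1.25 CPM in TdTomato- libraries. Every TdTomato+ library was above every TdTomato- library (2.49, s.e. 0.22). *Htr2a*, the Gq-coupled receptor that hallucinogens bind, ranged from 3.04 to 5.39 CPM against 0.704 to 0.951 CPM (2.25, s.e. 0.16). *Htr5a*, Gi/o-coupled, was higher by a smaller amount (1.30, s.e. 0.23), and its libraries overlapped between the populations, although each mouse was higher in its own TdTomato+ cells. *Htr7* (chr19:35958734-36057507), a Gs-coupled receptor, went the other way, with 6, 4, 5, 9 and 2 counts in TdTomato+ libraries, or 0.272, 0.173, 0.221, 0.391 and 0.0904 CPM, against 2.19, 1.56, 2.09, 1.47 and 1.46 CPM in TdTomato- libraries (−2.91, s.e. 0.29). The Gi/o-coupled *Htr1a* stayed near the table limit in both populations, at 1.496, 0.477, 0.883, 1.39 and 1.04 CPM and 0.665, 0.726, 0.521, 0.594 and 1.01 CPM, and the populations overlapped (log2 fold change 0.55, s.e. 0.29, edgeR adjusted p=0.118, or 0.78 with adjusted p=0.0352 without mouse 3).

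All 4 muscarinic acetylcholine receptors on the list were measured, with 3 called higher and 1 lower. The Gq-coupled *Chrm1* (1.86, s.e. 0.14) and *Chrm3* (1.02, s.e. 0.14) were each higher in all 5 mice, at means of 20.8 against 5.78 CPM and 6.39 against 3.18 CPM. The Gi/o-coupled pair parted: *Chrm2* was higher (1.81, s.e. 0.28) and *Chrm4* lower (−0.98, s.e. 0.22). *Chrm4* was low in both populations, at 0.544, 0.564, 0.795, 1.17 and 0.723 CPM in TdTomato+ and 1.56, 1.38, 1.40, 1.55 and 1.498 CPM in TdTomato- libraries. *Hrh3*, a Gi/o-coupled histamine autoreceptor and the only histamine receptor listed, was at 3.04, 1.08, 0.839, 3.96 and 1.76 CPM against 10.99, 9.47, 9.66, 8.64 and 10.1 CPM (−2.29, s.e. 0.30), with no overlap between libraries, and 11.1% of its exonic length is overlapped by a gene on the other strand. Over receptors for amines and acetylcholine together, 8 of 15 were called higher (53.3%) and 5 lower (33.3%), where 37.9% and 39.4% of all genes were.

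For purines, 1 receptor was higher and 1 lower. *Adora1* (chr1:134199223-134235431), the Gi/o-coupled A1 adenosine receptor that dampens transmitter release, was at 118, 64.4, 54.7, 96.0 and 97.6 CPM in TdTomato+ and 19.1, 10.02, 12.03, 14.5 and 18.4 CPM in TdTomato- libraries. The lowest TdTomato+ library stood above the highest TdTomato- library (2.53, s.e. 0.08). Of the exonic length of *Adora1*, 20.1% overlaps a gene on the other strand, and the strand setting of the counts is not given in the sources used here. *P2ry1*, a Gq-coupled ADP receptor present on radial glia, had 7, 6, 6, 13 and 8 counts in TdTomato+ libraries and ranged from 1.43 to 2.50 CPM in TdTomato- libraries (−2.37, s.e. 0.27), with 23.1% of its exonic length overlapped on the other strand.

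Both subunits of the GABA-B receptor, an obligate heterodimer in which *Gabbr1* binds GABA and *Gabbr2* couples to Gi/o, were called higher. *Gabbr1* (chr17:37045966-37075067) was at 659.5, 616, 636, 591 and 594 CPM in TdTomato+ and 330.1, 277, 316, 293 and 301 CPM in TdTomato- libraries (1.03, s.e. 0.04). *Gabbr2* was at 87.9, 57.3, 53.3, 90.3 and 69.9 CPM and 21.5, 14.1, 20.5, 22.3 and 22.5 CPM (1.82, s.e. 0.10). The populations did not overlap for either subunit. Per kilobase of exon, *Gabbr1* was at 79.8 CPM and *Gabbr2* at 10.7 CPM in TdTomato+ cells, against 39.1 and 3.02 CPM in TdTomato- cells.

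The lipid receptors held both the highest level per kilobase of exon in TdTomato+ cells and the largest decrease. *Cnr1* (chr4:33924593-33948831), the Gi/o-coupled CB1 cannabinoid receptor known for its part in the axon growth of projection neurons, was at 566, 729.6, 694, 620.1 and 577 CPM in TdTomato+ and 136, 172, 168, 136 and 154 CPM in TdTomato- libraries, a clear separation (2.06, s.e. 0.05). *S1pr1* (chr3:115710433-115715072), a Gi/o-coupled receptor for sphingosine 1-phosphate found on endothelium and neural progenitors, was at 0.317, 0.651, 0.397, 0.609 and 0.588 CPM in TdTomato+ and 26.6, 25.3, 21.2, 29.5 and 28.8 CPM in TdTomato- libraries. The log2 fold change of *S1pr1* was −5.66, s.e. 0.13, the 28th largest decrease of all genes. *S1pr3* (chr13:51408639-51422797), which couples to several G proteins, was at 0.680, 0.520, 0.353, 0.304 and 0.362 CPM against 6.88, 2.11, 2.97, 5.75 and 5.75 CPM (−3.33, s.e. 0.28), and within TdTomato- libraries it was lower in mice 3 and 4 than in the others. *S1pr2* was at 3.40, 6.29, 6.18, 4.83 and 4.84 CPM against 4.26, 4.70, 5.05, 4.56 and 4.22 CPM, with overlap (log2 fold change 0.14, s.e. 0.13, edgeR adjusted p=0.334).

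Values of cell markers moved with these decreases. Endothelial markers were nearly absent from both populations, with 2 of 6 in the table, *Cdh5*, *Tie1*, *Cldn5* and *Flt1* outside it, and summed levels of 0.678 to 1.91 CPM in TdTomato+ and 2.05 to 3.62 CPM in TdTomato- libraries. Pericyte markers (3 of 5 in the table) summed to 0.927 to 2.57 against 9.58 to 15.5 CPM and microglial markers (5 of 6) to 0.680 to 1.63 against 11.4 to 55.6 CPM. In TdTomato- libraries of mice 2 to 6 the microglial sum was 55.6, 11.4, 16.0, 40.4 and 47.8 CPM. The pericyte sum was 14.6, 10.8, 9.58, 13.9 and 15.5 CPM, and that of oligodendrocyte precursor markers 64.3, 43.0, 45.1, 55.4 and 60.5 CPM. Mice 3 and 4 were lowest for each of these sums and for *S1pr3*, but not for the radial glia sum (1716, 1759, 1572, 1848 and 1766 CPM). The part of any of these cells, or of the radial glia, in the receptor values was not tested.

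Of the peptide receptors, 4 of 11 were called higher (36.4%), 5 lower (45.5%) and 2 not called, near the 37.9% and 39.4% of all genes. *Mc4r*, the Gs-coupled melanocortin receptor known for the control of feeding, was at 90.1, 97.4, 82.1, 126 and 122 CPM in TdTomato+ and 2.62, 3.97, 3.45, 3.92 and 4.53 CPM in TdTomato- libraries. Its log2 fold change of 4.80, s.e. 0.09 was the largest of the receptors and rank 8 of 14300 genes. *Ntsr1* (chr2:180499976-180544980), the Gq-coupled neurotensin receptor whose promoter is widely used to label layer VI corticothalamic neurons, was at 110.3, 73.3, 75.4, 103 and 103 CPM against 8.91, 9.30, 9.58, 9.39 and 10.1 CPM (3.28, s.e. 0.10). Neither gene had overlapping libraries. *Crhr1*, the Gs-coupled receptor for corticotropin-releasing hormone, was higher (1.85, s.e. 0.12), at means of 9.11 and 2.51 CPM. *Tacr1*, the Gq-coupled substance P receptor, was lower (−1.50, s.e. 0.33), although the TdTomato+ library of mouse 3 exceeded the TdTomato- library of mouse 6.

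Somatostatin receptors, which all couple to Gi/o, were lower or did not pass the test. *Sstr2* (chr11:113619342-113626028) was at 7.80, 11.5, 10.9, 13 and 12.6 CPM in TdTomato+ and 77.8, 105, 92.1, 111 and 116 CPM in TdTomato- libraries, far apart (−3.17, s.e. 0.05). *Sstr3*, a receptor of neuronal primary cilia, was lower in each mouse (−1.06, s.e. 0.10), with libraries of the populations overlapping. *Sstr1* was at 3.31, 2.95, 3.27, 3.57 and 1.40 CPM against 1.25, 2.52, 2.89, 2.34 and 2.20 CPM (log2 fold change 0.36, s.e. 0.25, edgeR adjusted p=0.218, or 0.58 with adjusted p=0.0458 without mouse 6, whose TdTomato+ library was the lowest). The nociceptin receptor *Oprl1* (0.67, s.e. 0.06) and the mu-opioid receptor *Oprm1* (−1.49, s.e. 0.45), both Gi/o-coupled, were called in opposite directions.

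For neuropeptide Y, the Gi/o-coupled *Npy2r* was lower (−2.39, s.e. 0.34), with 6, 6, 11, 6 and 1 counts in TdTomato+ and 17, 56, 41, 42 and 31 counts in TdTomato- libraries. *Npy1r* was at 5.26, 0.824, 0.530, 7.70 and 6.87 CPM in TdTomato+ and 3.44, 0.898, 1.56, 3.57 and 2.09 CPM in TdTomato- libraries. It was higher in TdTomato+ cells of mice 2, 5 and 6 and lower in those of mice 3 and 4 (log2 fold change 0.64, s.e. 0.36, edgeR adjusted p=0.135). Without mouse 4 the value was 0.96 and the edgeR adjusted p 0.00698.

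Grouped by the G protein that each receptor is usually given, 5 of 6 Gs-coupled receptors were called higher and 1 lower, with a median log2 fold change of 2.78. *Mc4r*, *Drd1*, *Adrb1*, *Htr6* and *Crhr1* were the higher ones and *Htr7* the lower one. Of 7 Gq-coupled receptors, 4 were higher and 3 lower (median 1.02). Of 19 Gi/o-coupled receptors, 7 were higher (36.8%), 8 lower (42.1%) and 4 not called (median 0.36), close to the 37.9% higher and 39.4% lower of all genes. These counts rest on few genes chosen by name and are not a test of coupling.

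Promoters of 2 receptors from each end are shown. Among the receptors considered, they are the largest increases and decreases with a single RefSeq start window, 250 bases upstream of the start. *Mc4r* and *Gpr17* were not considered, whatever their number of windows. The windows, read 5′ to 3′ on the strand of the gene from RefSeq sequence of GRCm38.p6, are chr2:180499726-180499975 for *Ntsr1*, chr19:56721867-56722116 for *Adrb1*, chr13:51408368-51408617 for *S1pr3* and chr11:113619077-113619326 for *Sstr2*. Capitals mark a cAMP response element where 1 was found.
Ntsr1: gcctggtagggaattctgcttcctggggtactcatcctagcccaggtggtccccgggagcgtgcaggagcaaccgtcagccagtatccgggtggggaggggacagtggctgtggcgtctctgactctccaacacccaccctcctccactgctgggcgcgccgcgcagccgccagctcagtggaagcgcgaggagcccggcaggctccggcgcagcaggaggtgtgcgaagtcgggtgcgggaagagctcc
Adrb1: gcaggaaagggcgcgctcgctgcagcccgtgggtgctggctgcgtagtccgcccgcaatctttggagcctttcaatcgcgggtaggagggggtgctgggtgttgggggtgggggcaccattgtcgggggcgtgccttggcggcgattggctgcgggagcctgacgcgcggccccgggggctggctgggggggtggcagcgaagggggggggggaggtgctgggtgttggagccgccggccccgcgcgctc
S1pr3: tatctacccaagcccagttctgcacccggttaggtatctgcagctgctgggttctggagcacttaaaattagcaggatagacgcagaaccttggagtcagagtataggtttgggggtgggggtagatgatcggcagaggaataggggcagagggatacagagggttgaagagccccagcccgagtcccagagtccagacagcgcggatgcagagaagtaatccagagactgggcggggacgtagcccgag
Sstr2: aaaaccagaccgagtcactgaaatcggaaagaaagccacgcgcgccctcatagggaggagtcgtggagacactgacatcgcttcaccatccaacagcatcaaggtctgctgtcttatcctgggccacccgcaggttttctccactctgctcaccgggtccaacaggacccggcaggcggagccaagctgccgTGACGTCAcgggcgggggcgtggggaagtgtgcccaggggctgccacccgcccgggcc
The guanine and cytosine content was 68.4% for *Ntsr1*, 74.0% for *Adrb1*, 56.4% for *S1pr3* and 63.6% for *Sstr2*. RefSeq windows matched 54 of the 71 receptors, with 75 windows. Both strands were searched for an E-box (CAGATG), a T-box element (AGGTGTGA) and the cAMP response element (TGACGTCA). The E-box was in 4 of 40 windows of higher receptors, 1 of 24 of lower and 4 of 11 of receptors not called, against 14.4% of 32851 windows of all genes. The T-box element was in none of the receptor windows and in 1.12% of all windows. The cAMP response element was in 0 of 40, 1 of 24 and 1 of 11 windows, against 1.55% of all. A match is a description of letters in these windows, and RNA counts do not measure the promoter.

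Of the 37 *Gpr*-numbered genes, 25 belong to the rhodopsin-like or other orphan receptors, 1 is a proton sensor and 9 are multipass proteins that carry the symbol outside the main receptor classes. Among the 25, 16 were called higher (64%) and 6 lower (24%), where 37.9% and 39.4% of all genes were. *Gpr22* (chr12:31706867-31713947) is an orphan receptor of brain and heart, and it was at 27.6, 30.4, 23.5, 31.0 and 23.4 CPM in TdTomato+ and 3.28, 4.25, 4.85, 2.62 and 3.80 CPM in TdTomato- libraries (2.85, s.e. 0.16). *Gpr26* (chr7:131966460-131994405) is a brain orphan receptor with constitutive Gs activity, and it was at 171, 204, 204, 179 and 133 CPM against 25.998, 33.5, 35.0, 23.8 and 21.2 CPM (2.68, s.e. 0.06). *Gpr12* (chr5:146582398-146585239), another receptor with constitutive Gs activity, was at 23.8, 17.3, 15.5, 26.7 and 23.9 CPM against 2.93, 2.45, 2.57, 3.92 and 5.02 CPM (2.68, s.e. 0.12). None of the 3 had overlapping libraries. *Gpr61* (chr3:108148321-108154882) was at 1.36, 2.39, 1.90, 2.04 and 0.678 CPM in TdTomato+ and 0.156, 0.380, 0.281, 0.238 and 0.174 CPM in TdTomato- libraries, the latter all under the limit of the table (2.72, s.e. 0.24). The proton-sensing *Gpr4*, also a receptor of endothelium, was higher (2.22, s.e. 0.15), at 5.92 to 7.20 CPM against 1.19 to 1.94 CPM.

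**Figure D2:**
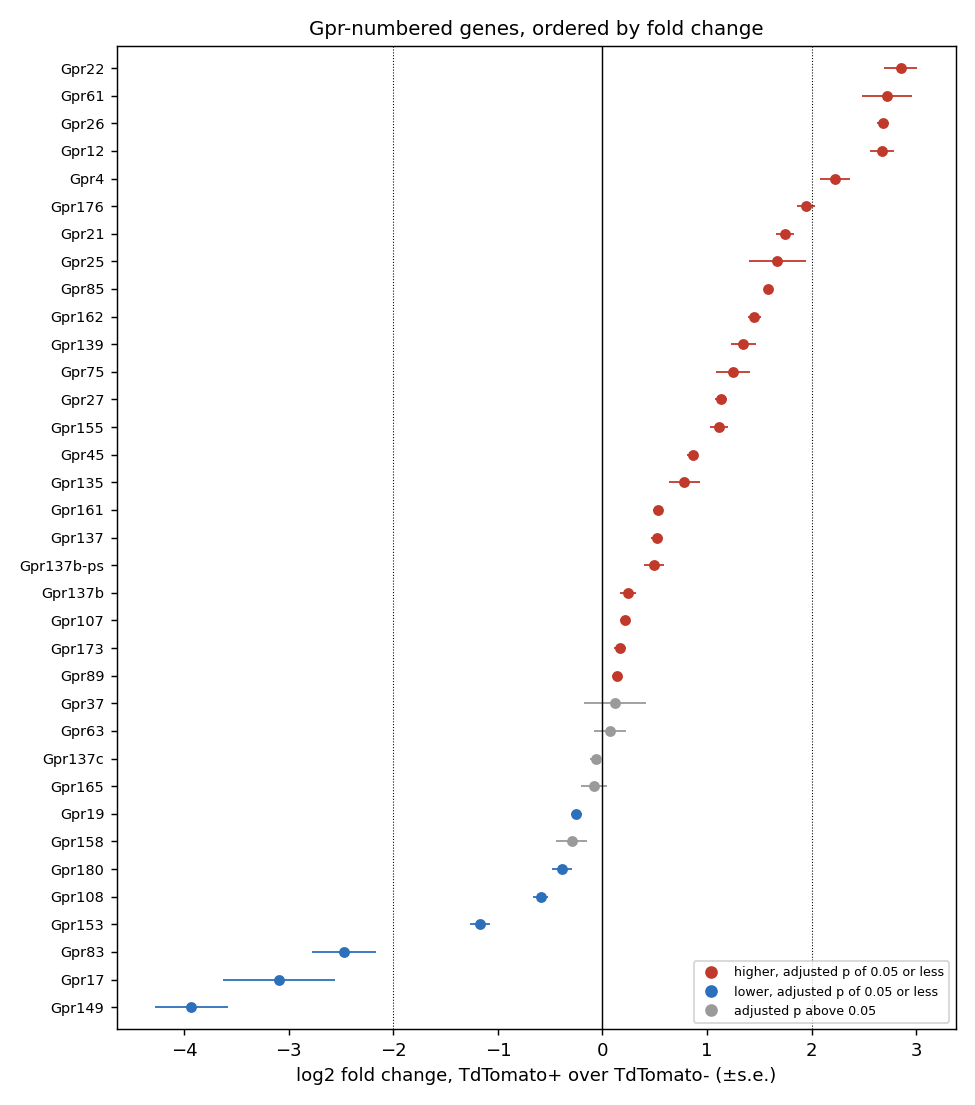
Each point is the log2 fold change of 1 of 35 *Gpr*-numbered genes, TdTomato+ over TdTomato- cells, with its standard error as a bar (5 mice per population) and dotted lines at −2 and 2. The 23 genes called higher reach 2.85 (*Gpr22*), and 3 of the 7 shown that were called lower lie below −2, down to −3.93 (*Gpr149*).

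Among the decreases, *Gpr149* (chr3:62529077-62605140), an orphan receptor, had 2, 1, 4, 8 and 3 counts in TdTomato+ libraries against 57, 71, 93, 53 and 57 in TdTomato- libraries (−3.93, s.e. 0.35). The class C receptor *Gpr158* was at 2.04, 3.60, 3.58, 2.91 and 1.49 CPM against 3.01, 3.52, 3.85, 3.65 and 2.30 CPM (−0.29, s.e. 0.15, edgeR adjusted p=0.0961), with overlap.

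*Gpr17* marks the oligodendrocyte lineage before myelination. It had 1, 4, 1, 8 and 1 counts in TdTomato+ libraries and 32, 20, 34, 20 and 55 counts in TdTomato- libraries (−3.09, s.e. 0.53, or −3.94 without mouse 5). Markers of oligodendrocyte precursors, 4 of 5 in the table with *Sox10* outside it, summed to 2.03 to 3.83 CPM in TdTomato+ and 43.0 to 64.3 CPM in TdTomato- libraries, and their part in the *Gpr17* value was not tested. *Gpr83* (chr9:14860210-14870789), a receptor also found on regulatory T cells, had 4, 2, 5, 2 and 2 counts against 21, 17, 22, 15 and 26 counts (−2.47, s.e. 0.31), without overlap.

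**Figure D3:**
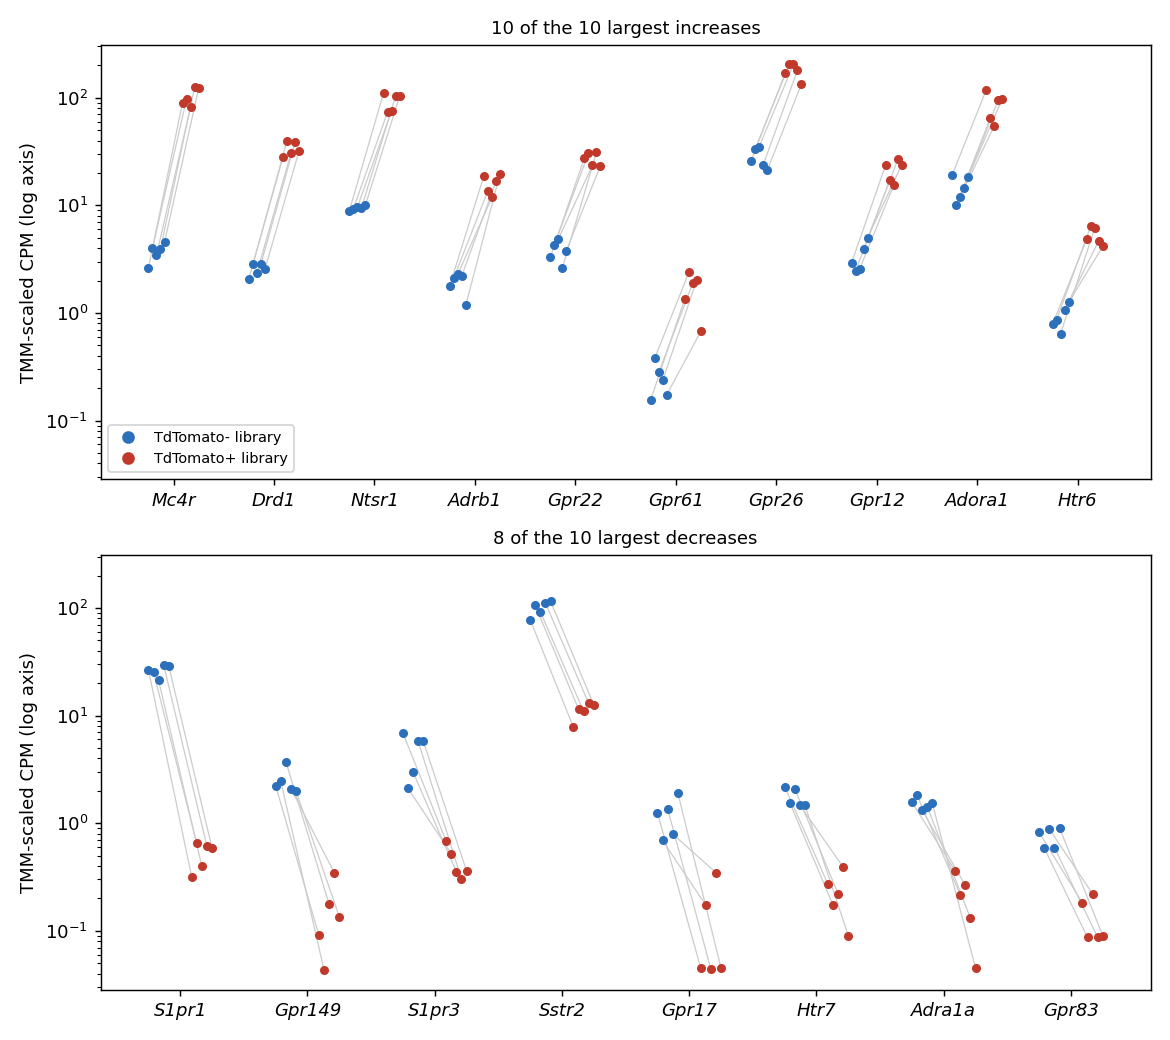
TMM-scaled CPM on a log axis of the 10 receptors with the largest increase (top) and 8 of the 10 with the largest decrease (bottom), 1 point per library, with grey lines joining both libraries of a mouse. All lines of a gene run the same way, and the lowest TdTomato+ points stand for 1 count, as for *Gpr17* in mice 2, 4 and 6.

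The remaining *Gpr*-numbered genes called higher were *Gpr176*, *Gpr21*, *Gpr25*, *Gpr85*, *Gpr162*, *Gpr139*, *Gpr75*, *Gpr27*, *Gpr155*, *Gpr45*, *Gpr135*, *Gpr161*, *Gpr137*, *Gpr137b-ps*, *Gpr137b*, *Gpr107*, *Gpr173* and *Gpr89*, from 1.95 down to 0.14. *Gpr85*, *Gpr27* and *Gpr173* form the SREB family of brain receptors that are highly conserved among vertebrates. *Gpr85* was at 188, 158, 157, 213 and 206 CPM in TdTomato+ and 63.2, 52.9, 53.9, 65.3 and 72.3 CPM in TdTomato- libraries (1.58, s.e. 0.04). *Gpr27* was at 91.1, 84.8, 85.2, 85.7 and 70.2 CPM against 39.0, 36.8, 38.5, 37.4 and 37.5 CPM (1.14, s.e. 0.06). *Gpr173* differed least of the family (0.17, s.e. 0.06), its libraries overlapped, and its call did not hold without mouse 3 or mouse 4. *Gpr161*, a ciliary receptor that restrains Hedgehog signaling, was at 260.1, 265, 252, 244 and 212 CPM against 179, 163, 174, 179 and 159.7 CPM (0.53, s.e. 0.05), and the populations did not overlap.

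Among the multipass proteins, none reached a log2 fold change of 2 in size, and the called values ran from −0.59 (*Gpr108*) to 1.12 (*Gpr155*, a lysosomal cholesterol sensor). *Gpr137b* and its copy *Gpr137b-ps* may share reads, so their values are uncertain. The call of *Gpr137b* did not hold with DESeq2 or without mouse 4 or 6, nor that of *Gpr89* with DESeq2 or without mouse 3. Smaller decreases were called for *Gpr153* (−1.17, s.e. 0.10), *Gpr180* (−0.39, s.e. 0.09) and *Gpr19* (−0.25, s.e. 0.06). Overlap with a gene on the other strand covers 41.6% of the exonic length of *Gpr25*, 27.9% of *Gpr89* and 15.4% of *Gpr137*, and under 10% of *Gpr19*, *Gpr63*, *Gpr158* and *Chrm1*.

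Beside *Gpr158*, 4 *Gpr*-numbered genes did not pass the test. *Gpr37*, a receptor of oligodendrocytes and dopamine neurons, was at 3.26, 1.69, 1.41, 3.65 and 2.58 CPM in TdTomato+ and 1.37, 2.42, 2.89, 2.50 and 2.16 CPM in TdTomato- libraries (log2 fold change 0.12, s.e. 0.30, edgeR adjusted p=0.723). *Gpr63* was at 4.31, 5.03, 3.75, 5.43 and 5.65 CPM against 4.18, 5.11, 5.29, 4.32 and 4.04 CPM (0.07, s.e. 0.15, edgeR adjusted p=0.678). Libraries overlapped for both, as for the remaining pair. *Gpr165* was at 3.22, 3.69, 4.68, 4.61 and 3.30 CPM against 4.07, 4.15, 4.53, 4.20 and 3.55 CPM (−0.08, s.e. 0.12, edgeR adjusted p=0.548). *Gpr137c* was at 15.0, 17.5, 16.9, 16.6 and 16.0 CPM against 16.2, 18.0, 16.3, 17.6 and 17.005 CPM (−0.06, s.e. 0.06, edgeR adjusted p=0.398), the smallest standard error of these.

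To compare levels between genes, CPM were divided by exonic length. In TdTomato+ cells the highest receptors were *Cnr1* at 98.9, *Gabbr1* at 79.8, *Gpr85* at 45.2, *Mc4r* at 37.0 and *Gpr161* at 35.4 CPM per kb. In TdTomato- cells they were *Sstr2* at 46.9, *Gabbr1* at 39.1, *Gpr161* at 24.5, *Cnr1* at 23.8 and *Gpr27* at 15.8 CPM per kb. *Mc4r* was at 1.32 CPM per kb in TdTomato- cells and *Sstr2* at 5.21 in TdTomato+ cells, so each was among the highest in 1 population only. *Drd1*, among the largest increases, was at 9.35 CPM per kb in TdTomato+ cells, under the level of *Gpr27* (34.9).

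**Figure D4:**
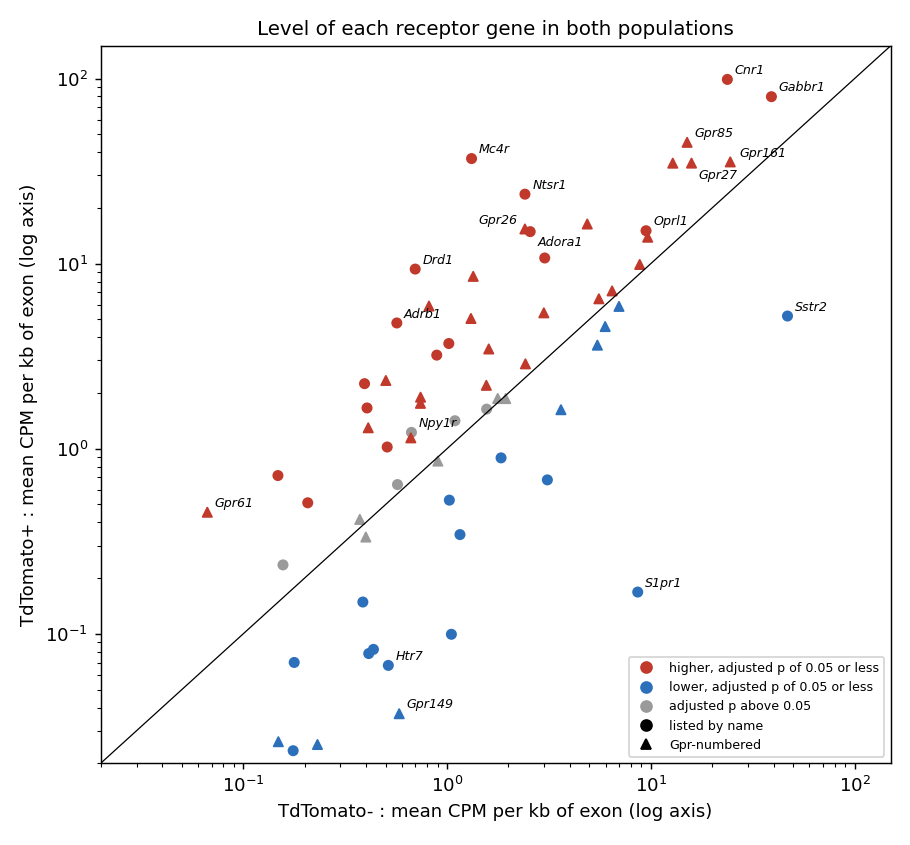
Mean CPM per kb of exon of 69 of the 71 receptor genes in TdTomato- (x) and TdTomato+ cells (y), both on log axes, with the line of equal levels, 5 libraries per population and no error bars. *Cnr1* and *Gabbr1* are highest on the y axis, *Sstr2* (46.9 against 5.21) is highest on the x axis, and *S1pr1* (8.63 against 0.168) lies farthest below the line.

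Between mice, the median s.d. of log2 CPM of the receptors was 0.271 in TdTomato+ and 0.233 in TdTomato- libraries, against 0.143 and 0.140 for all genes. Within mice, 61 of 71 receptors had the same direction in all 5, as had 10887 of all 14300 genes. Among TdTomato+ libraries the s.d. was wide for *Npy1r* (1.75), *Oprm1* (1.45), *Tacr1* (1.23), *Chrm2* (1.22) and *Hrh3* (0.907). *Oprm1* was at 1.36, 0.130, 0.0442, 0.739 and 0.542 CPM in TdTomato+ and 1.76, 1.38, 1.28, 1.55 and 1.18 CPM in TdTomato- libraries. *Tacr1* was at 0.272, 1.73, 1.63, 0.957 and 0.226 CPM against 2.54, 3.42, 2.89, 2.06 and 1.64 CPM, and *Chrm2* at 3.31, 19.2, 17.4, 7 and 3.30 CPM against 2.31, 3.28, 2.97, 2.42 and 1.29 CPM. In TdTomato+ cells of mice 3 and 4, *Npy1r*, *Oprm1* and *Hrh3* were lowest, whereas *Tacr1* and *Chrm2* were highest. Receptors with less spread shared this pattern. *Adora1*, *Ntsr1*, *Gabbr2* and *Adrb1* were also lowest in those libraries and *Cnr1* and *Gpr26* highest, whereas *Drd1* was neither.

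**Figure D5:**
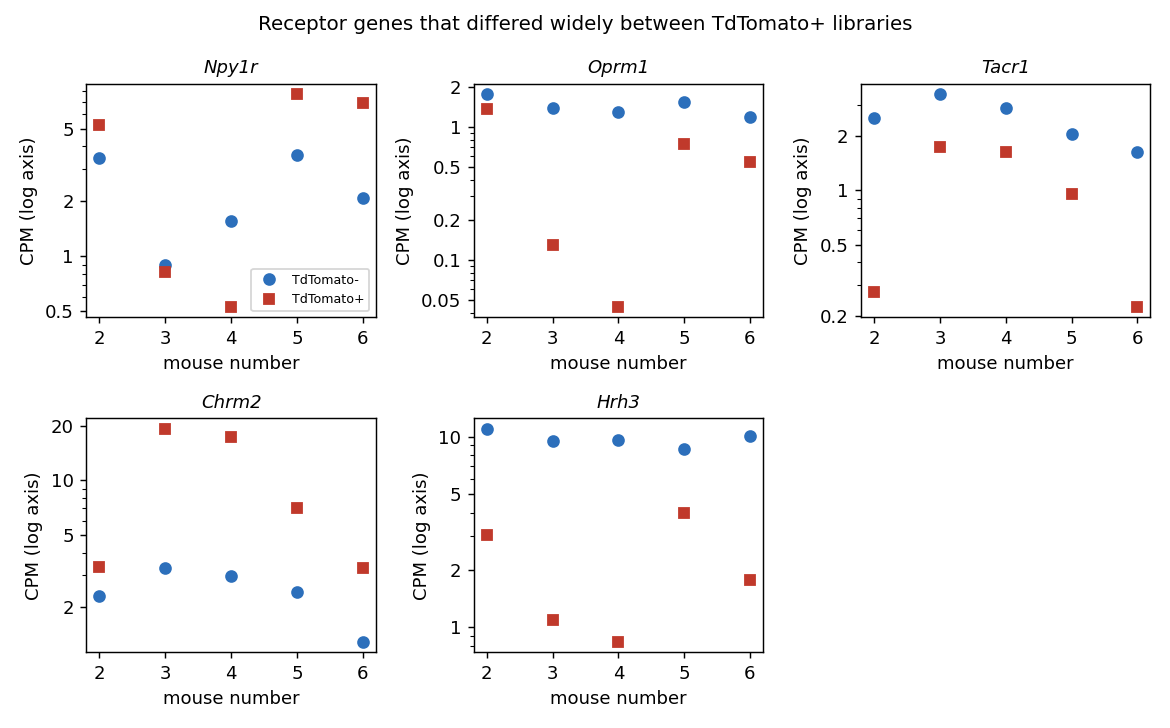
CPM (log axes) by mouse number for 5 receptors with a wide s.d. of log2 CPM among TdTomato+ libraries, with TdTomato- libraries as circles and TdTomato+ libraries as squares, 1 library each. In TdTomato+ libraries, mice 3 and 4 are low for *Npy1r*, *Oprm1* and *Hrh3* and high for *Tacr1* and *Chrm2*.

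Receptors were also compared by protein sequence. Of 2415 pairs among the 70 genes with a translated GENCODE transcript, 25 had at least 40% identical residues over the shorter protein. Both genes were called in the same direction in 9 of these pairs (36.0%) and in opposite directions in 6 (24.0%). Over all 2415 pairs the shares were 38.7% and 34.6%, so the counts are not a result about receptors alike in sequence. The opposite pairs were *Chrm2* and *Chrm4* (60.7% identity), *Oprl1* and *Oprm1* (54.5%), *Gpr107* and *Gpr108* (51.9%), *Chrm1* and *Chrm4* (49.6%), *Chrm3* and *Chrm4* (49.5%), and *Gpr153* and *Gpr162* (49.0%). *S1pr1* and *S1pr3* (52.6%) were both lower, and *Gpr85* and *Gpr173* (63.2%), the most alike pair, both higher.

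Sister receptors of the same families that were not listed gave 7 genes of 37 looked for, with 2 called higher and 5 lower, where 37.9% and 39.4% of all genes were. *P2ry6* and *P2ry12* passed the table limit in TdTomato- libraries only and had to be lower. *Drd2*, the Gi/o-coupled D2 receptor, was lower (−3.22, s.e. 0.25), at 0.670 against 6.42 CPM, where *Drd1* was higher. *Adora2a*, an adenosine receptor of striatal neurons, was at 2.48 against 6.73 CPM (−1.62, s.e. 0.54, edgeR adjusted p=0.0207), a call that did not hold without mouse 2, 5 or 6 or with robust estimation. *P2ry6* was lower (−2.07, s.e. 0.52), and the microglial *P2ry12* had 1, 2, 2, 1 and 1 counts in TdTomato+ libraries, all within 3 counts, against 144, 48, 39, 121 and 108 in TdTomato- libraries. *S1pr5* was higher (1.34, s.e. 0.30), where *S1pr1* and *S1pr3* were lower. The call of *Tacr3* (0.92, s.e. 0.34) did not hold with DESeq2 or without mouse 2, 5 or 6, nor that of *Drd4* (−0.81, s.e. 0.27) with DESeq2 or without mouse 4 or 5.

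Of the G protein subunits to which the receptors couple, 23 of 25 were in the table, with 13 called higher (56.5%) and 6 lower (26.1%), where 37.9% and 39.4% of all genes were (median 0.21). *Gnal*, the Gs-type alpha subunit of olfactory and striatal neurons that D1 receptors use, was higher (2.53, s.e. 0.08), at 242±56.7 against 41.7±8.27 CPM. *Gnas*, the general Gs alpha subunit, was at 977±57.6 against 953±35.6 CPM (0.03, s.e. 0.05, edgeR adjusted p=0.537). *Gnai2* was lower (−1.88, s.e. 0.04). Of the 7 receptor kinases and arrestins, 4 were higher (57.1%) and 1 lower (14.3%), against the same shares of all genes, and *Grk3* changed most (2.01, s.e. 0.14). The 4 GIRK channel genes, whose channels Gi/o-coupled receptors open, are too few to set against those shares: *Kcnj3* (1.55, s.e. 0.13) and *Kcnj9* (0.88, s.e. 0.14) were higher, *Kcnj5* was lower (−3.01, s.e. 0.35), and *Kcnj6* was not called (−0.13, s.e. 0.25). A gene on the other strand overlaps 31.1% of the exonic length of *Kcnj3*, 22.0% of *Gnas* and 7.63% of *Gnal*. *Gng8*, among the 6 lower subunits, passed the table limit in TdTomato- libraries only and had to be lower.

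Genes for the ligands were described by group. Of 16 neuropeptide precursors looked for, 8 were in the table, with 7 called lower, where 39.4% of all genes were, and 1 higher, where 37.9% were (median −2.07). *Tac1* passed the table limit in TdTomato- libraries only and had to be lower. *Sst* (−4.16, s.e. 0.16), *Tac1* (−4.87, s.e. 0.25), *Pnoc* (−3.58, s.e. 0.28) and *Npy* (−2.14, s.e. 0.38) were past the fold threshold, and *Nts*, the ligand of *Ntsr1*, was at 0.450 against 1.94 CPM (−1.99, s.e. 0.32). *Sst*, *Npy* and *Pnoc* are known from GABAergic neurons, whose markers were 1837 to 2283 CPM in TdTomato- libraries, and the part of these cells was not tested. The call of *Pdyn*, the higher one (0.74, s.e. 0.28), did not hold with DESeq2 or without mouse 4 or 5, nor that of *Pomc* (−0.61, s.e. 0.22) without the mouse block, with DESeq2, or without any 1 of mice 2 to 5. Of 11 genes for synthesis and vesicular transport of amines and acetylcholine, 3 were in the table, too few to set against the 39.4% of all genes called lower. All 3 were lower, *Slc18a2* (−5.22, s.e. 0.20), *Th* (−3.52, s.e. 0.35) and *Ddc* (−3.46, s.e. 0.46, or −4.26 without mouse 4).

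Of 11 genes in the table that make, carry or break down endocannabinoids, adenosine or sphingosine 1-phosphate, 5 were called higher and 5 lower, or 45.5% each, near the 37.9% and 39.4% of all genes. *Dagla*, which makes 2-arachidonoylglycerol, was higher (1.26, s.e. 0.05), as was *Mgll*, which breaks it down (3.14, s.e. 0.05), at 55.1±11.5 against 6.25±1.36 CPM. *Napepld*, of the anandamide route, was lower (−2.19, s.e. 0.15). *Spns2*, an exporter of sphingosine 1-phosphate, was higher (1.31, s.e. 0.05), where the receptors *S1pr1* and *S1pr3* were lower. *Adk*, which clears adenosine, was lower (−0.85, s.e. 0.06), where *Adora1* was higher.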

How the data were processed

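RNA of sorted TdTomato+ and TdTomato- cells of 5 mice was measured in 10 libraries. The deposited values are raw read counts per gene. To make them, the authors trimmed reads, aligned them to GRCm38 with STAR 2.4.2a, allowing 1 mismatch, and kept unique alignments for gene quantification. The submitters' notes also name edgeR 3.28.0. The annotation release and strand column are not given in the sources used here. The table held 14300 genes, and every gene exceeded 0.5 CPM in at least 5 libraries. GENCODE M21 matched 14271 identifiers and left 29 without a symbol. There were 0 columns of other samples.

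Populations were compared with edgeR 4.0.16 in R 4.3.3 (filterByExpr, which removed 0 genes, TMM factors 0.929 to 0.946 for TdTomato+ and 1.06 to 1.07 for TdTomato- libraries, glmQLFit, glmQLFTest) with mouse number as a block, following the paired comparison of the study. Standard errors are the log2 fold change divided by the square root of F. P-values were adjusted over all genes, with thresholds of 0.05 and, for the fold, 2. Fitted fold changes used a prior count of 0.125 and log2 CPM one of 2. CPM values are TMM-scaled, and means are given with s.d. over 5 mice. Both libraries of a number came from 1 mouse number in the labels. Deviations from the population means correlated across genes at 0.303, 0.268, 0.281, 0.186 and 0.316 within mice 2 to 6 and at −0.312 to 0.212 between different numbers. Whether a number stands for 1 embryo or for several was not given, and p-values measure the spread between these samples. Libraries of a population differed beyond sampling noise (chi-square per degree of freedom 4.46 to 32.0), so each was counted as 1 sample. Floors (3 counts) cover counting error only, whereas standard errors follow the F-test and include the spread between mice. The procedure was tested on simulated data with known changes.

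The receptors, classes, couplings, partner lists and markers were chosen with earlier results of these data known. Values in every library were given for the 10 largest increases and 10 largest decreases called in all mice, the first 4 listed receptors, the 5 highest per kb in each population and all receptors not called. *Gabbr2*, *Chrm4*, *Hrh3*, *Oprm1*, *Tacr1*, *Chrm2*, *Npy2r*, *P2ry1* and *P2ry12* were added after their values were seen. Protein identity was computed with Biopython 1.88 from translated GENCODE transcripts, for 70 of 71 genes. Alternatives were upper-quartile or RLE scaling, the DESeq2 1.42.0 test, no filter, a filter of 1 CPM, no mouse block, robust estimation, TREAT, a prior count of 2, and each mouse left out. Genes below the limit of the table were not analysed here. Counts and medians cover all 71 receptors, and the values of 2 of them are not reported here.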

Additional observations from a re-analysis of the deposited data

Results flagged for a closer look

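In each population, the 5 libraries of 69 receptors were checked with Dixon's ratio on log2 CPM, the gap between an extreme library and its neighbor divided by the range and set against the 95% critical value for 5 values. Chance alone puts about 1 in 20 groups past it, or 6.9 of the 138 groups checked, and 8 were. Among TdTomato+ libraries, mouse 6 was lowest for *Sstr1* (ratio 0.794, 1.40 CPM against 2.95 to 3.57 CPM in the others), *Crhr1* (0.741, 7.10 against 9.34 to 10.3 CPM) and *Gpr27* (0.725, 70.2 against 84.8 to 91.1 CPM). Mouse 2 was highest for *Gpr107* (0.761, 88.9 against 80.1 to 82.1 CPM) and mouse 5 for *Gpr135* (0.750, 5.13 against 3.00 to 3.43 CPM). Among TdTomato- libraries, mouse 3 was lowest for *Gabbr2* (0.803, 14.1 against 20.5 to 22.5 CPM), mouse 2 highest for *Gpr21* (0.795, 21.7 against 16.9 to 17.8 CPM) and mouse 5 highest for *Gpr75* (0.750, 2.85 against 1.88 to 2.09 CPM). The TdTomato+ library of mouse 6 had the lowest total of the 10 libraries, 23429034 counts, but the next lowest was close, at 23542791 counts. The 3 low receptors had 31 (*Sstr1*), 157 (*Crhr1*) and 1554 counts (*Gpr27*) in it, above its floor of 0.128 CPM. The cause was not tested.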

How the results depend on the processing

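Of the 61 receptors called, 58 kept their call and direction under every alternative that could be fitted apart from TREAT. The exceptions were *Gpr173*, *Gpr89* and *Gpr137b*. TREAT was used for the fold threshold only and was not part of this count. Scaling alternatives moved the median of all genes to between −0.025 and −0.001. Without the mouse as a replicate block, 39 receptors were called higher and 22 lower, which is the paired result too, with 0 receptor calls lost or gained, while the call of *Pomc* was lost. Receptors lower past the fold threshold numbered 13, but 8 with TREAT against a log2 fold change of 2 and 7 among receptors over 0.5 CPM in both populations. Sister receptors called higher went from 2 to 1 with DESeq2, with the filter of 1 CPM, and to 1 to 2 with a mouse left out, and those called lower from 5 to 3 with that filter and to 3 to 5 with a mouse left out, the lowest without mouse 5. Receptor kinases and arrestins called lower went from 1 to 2, with *Arrb2*, under upper-quartile normalization, the filter of 1 CPM and robust estimation. Neuropeptide precursors called higher went from 1 to 0 with DESeq2 and that filter, and to 0 to 1 with a mouse left out. With a mouse left out, signs turned for genes not called: *Gpr63* ranged from −0.026 to 0.21, *Adra2c* from −0.036 to 0.34 (−0.010 without mouse 4), *Gpr37* from −0.15 to 0.38 (−0.003 without mouse 5), *Kcnj6* up to 0.13 and *Sgpp1* up to 0.052 (0.013 without mouse 6). Counting error limits receptors with 1 to 15 counts in TdTomato+ libraries, such as *Gpr17*, *Gpr149* and *Adra1a*, whose fold changes also rest on the prior count. The cause of these shifts was not tested.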
